A study of Mus musculus with 4 samples.

Results

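The autophagy genes described here were 36 of the 19938 genes with a named probeset on the array. They were chosen by symbol, with earlier results of these data known. The rule took symbols of Atg followed by a digit, and a fixed set of other genes of the same pathway, from Ulk1 to Tfeb. Optn, which the set also names, was not analysed here. Only probesets that the platform annotation ties to exactly 1 symbol were read, and where a gene had several, the one brightest on average was taken.

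The arrays held RNA of mouse bone marrow-derived macrophages, grown from bone marrow for 7 days with L929 supernatant as a source of M-CSF, then cultured for 24 h and sorted for the macrophage surface protein F4/80. The 4 groups, with 1 array each, were Stat6-/- cells with IL-4, Stat6-/- cells in medium, wild-type cells with IL-4 and wild-type cells in medium. Stat6-/- cells came from 4get/Stat6-/- mice, which also carry the 4get allele, a reporter of Il4 transcription, while the wild type was BALB/c. The labels give no 4get allele for the wild type, so loss of Stat6, that allele and any other difference between the mouse lines cannot be told apart. Age, sex and the number of mice behind an array are not given in the labels, and the IL-4 dose stands there in 2 different units.

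Autophagy encloses pieces of cytoplasm in a double membrane, the autophagosome, and delivers them to lysosomes for breakdown. The ULK1 kinase complex starts the process, a class III PI3-kinase complex marks the site with the lipid PI3P, and a pair of ubiquitin-like conjugation systems attach LC3 and GABARAP proteins to the growing membrane, where cargo receptors such as p62 dock. In macrophages parts of the same machinery also act on phagosomes that hold microbes or dead cells. IL-4 turns macrophages towards alternative activation through the transcription factor STAT6.

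All values are log2 signals as the authors deposited them, and differences are log2 differences. A floor was set at 2.52, the median signal of probesets with 1 gene over the 4 arrays. A gene is said to have risen or fallen where the difference was at least 1, which is 2-fold, and the higher array reached the floor. Since each group was a single array, no difference below was tested and none has a replicate error, and precision is limited by that number. All 36 genes reached the floor on at least 1 array, and 35 did on all 4. The exception was Atg16l2, at 2.44 in wild-type cells with IL-4.

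Stat6 had signals of 4.25 with IL-4 and 4.54 in medium in Stat6-/- cells, and of 6.68 and 7.34 in wild-type cells, in the direction of the labels. All 8 macrophage markers were above the floor on every array. Their median signal was 9.85 with IL-4 and 9.92 in medium in Stat6-/- cells, and 9.13 with IL-4 and 10.05 in medium in wild-type cells. Of the markers of T cells, B cells, neutrophils, mast cells and basophils, dendritic cells and fibroblasts, 0 to 3 of each list reached the floor on any array, none above 3.41, and their summed linear signal was at most 37.7 on any array.

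With IL-4, 6 of the 36 autophagy genes fell in wild-type macrophages and 0 rose. They were Ulk1 (-1.37) and Ulk2 (-1.34), the kinases that start autophagy, Atg14 (-1.19) and Uvrag (-1.05), which give the PI3-kinase complex its place of action, Atg4c (-1.16), a protease for LC3 proteins, and Nbr1 (-1.23), a cargo receptor. In Stat6-/- macrophages 0 of 36 rose or fell with IL-4. Of all genes 0.355% did, so that count says nothing particular about the autophagy genes. Tfeb, the transcription factor that drives lysosome and autophagy genes, lay on the other side, with 0.68 in wild-type and 0.47 in Stat6-/- cells, short of the rule in both.

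The share of these genes that fell in wild-type cells was 16.7%. With quantile normalization applied again 4 of the 36 fell, without Atg4c and Uvrag, and with the intensity trend removed 5 fell, without Uvrag. Over all 10282 genes above the floor in this comparison 9.74% changed, 6.78% lower and 2.96% higher, which puts 30.4% of the changed genes on the higher side. Quantile normalization applied again moved that share to 45.2%, and removal of the intensity trend moved it to 43.8%. The median difference was -0.44 over the autophagy genes and -0.11 over all genes, and 30 of the 36 were below 0, against 58.6% of all genes. Quantile normalization applied again raised the median of all genes to 0.02, and that of the autophagy genes to -0.32, so that the distance between them was -0.33 before and -0.34 after. The distance was -0.31 with the intensity trend removed and -0.45 with no floor. With a floor at the 75th percentile it was -0.29, over 27 autophagy genes, and the median of all genes was -0.20. At a rule of 1.5-fold 12 of the 36 were lower, where the share of all genes was 19.2%. Those added to the 6 above were Rb1cc1, Pik3c3, Atg13, Atg2a, Atg4b and Atg2b. A second probeset of Atg2b had a difference of 0.05 in wild-type cells. Tfeb was the 1 gene that was higher at this rule, where the share of all genes was 9.05%. The signal of 24 of the 36 genes was lowest on the array of wild-type cells with IL-4, which held the lowest signal of 35.4% of all genes.

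Some macrophage markers moved with this result. The summed linear signal of the 8 was 9616 with IL-4 and 9641 in medium in Stat6-/- cells, and 6949 with IL-4 and 10705 in medium in wild-type cells. Adgre1, which encodes F4/80, was at 9.54 with IL-4 and 10.75 in medium in wild-type cells, and Cd14 was at 6.38 and 9.11. Fcgr1 was at 7.65 and 9.41, and Mertk at 5.36 and 6.71. The other markers differed less, with Csf1r at 10.25 and 10.87 and Lyz2 at 11.40 and 11.82. Cd68 was at 10.58 and 10.69 and Itgam at 8.73 and 8.99. In bulk RNA, fewer cells of a type and less RNA per cell cannot be told apart, and the part of these markers in the lower autophagy signals was not tested.

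**Figure D1:**
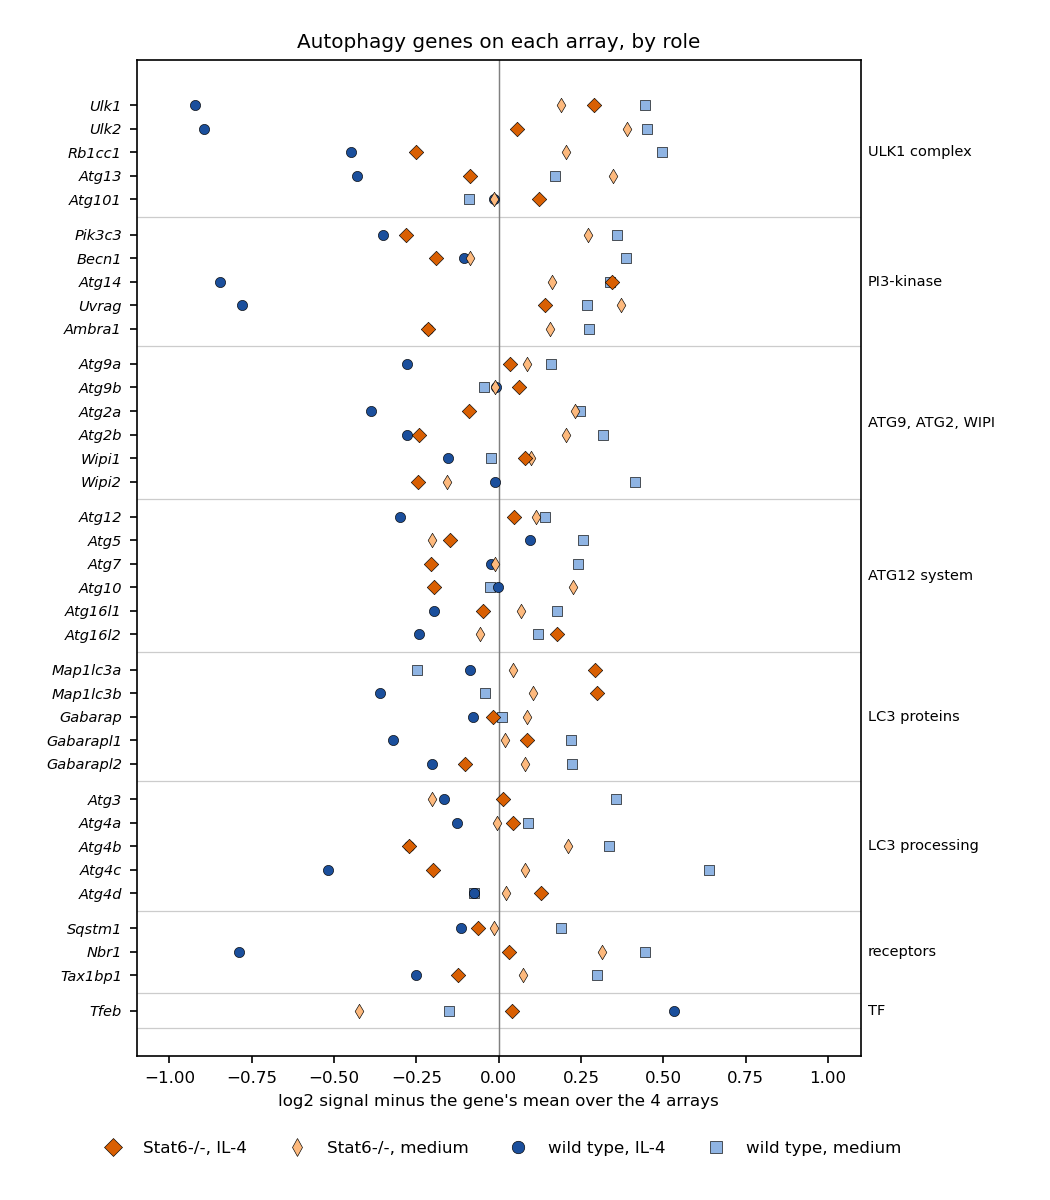
Each row is an autophagy gene, grouped by role, and each point its log2 signal on 1 array minus its mean over the 4 arrays (orange, Stat6-/-; blue, wild type; darker, IL-4). Wild-type cells with IL-4 lie at the far left for Ulk1, Ulk2, Atg14, Uvrag, Atg4c and Nbr1, and at the far right for Tfeb.

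The upstream 250 bases of the genes that carry the comparison were read for letters of factors tied to IL-4 or to autophagy. The sequences are RefSeq promoter windows of build GRCm38.p6, found for 30 of the 36 genes. Becn1, Rb1cc1, Atg12, Atg16l1, Map1lc3a and Pik3c3 had no window in the table used. Shown are Ulk1, Ulk2 and Atg14, the genes whose IL-4 differences in the 2 genotypes lay more than 2-fold apart, Tfeb, the gene that lay highest with IL-4, and Atg5 as a conjugation gene with little change. Their places are chr5:110810082-110810331, minus strand, for Ulk1, chr11:61855093-61855342, minus strand, for Ulk2, chr14:47568435-47568684, minus strand, for Atg14, chr17:47785494-47785743, plus strand, for Tfeb, and chr10:44268089-44268338, plus strand, for Atg5. The Tfeb window is the most downstream of 3 start sites in the table, shown because it alone of the 3 holds the STAT6-type palindrome. Each sequence ends at the base before the transcription start and is given 5′ to 3′. Capitals mark the E-box CACGTG of the TFEB family, the STAT6-type palindrome TTCNNNNGAA, the FOXO core TAAACA and the antioxidant response core TGANNNNGC, on either strand.
Ulk1: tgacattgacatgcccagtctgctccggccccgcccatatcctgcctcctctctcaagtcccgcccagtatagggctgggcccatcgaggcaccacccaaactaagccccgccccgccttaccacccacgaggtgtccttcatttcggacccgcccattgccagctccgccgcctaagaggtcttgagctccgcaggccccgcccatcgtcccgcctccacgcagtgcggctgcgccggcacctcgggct
Ulk2: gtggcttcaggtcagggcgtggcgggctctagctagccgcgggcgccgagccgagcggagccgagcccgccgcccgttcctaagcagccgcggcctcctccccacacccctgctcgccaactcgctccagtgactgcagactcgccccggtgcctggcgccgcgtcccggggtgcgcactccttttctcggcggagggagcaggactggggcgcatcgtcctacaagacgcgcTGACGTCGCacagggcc
Atg14: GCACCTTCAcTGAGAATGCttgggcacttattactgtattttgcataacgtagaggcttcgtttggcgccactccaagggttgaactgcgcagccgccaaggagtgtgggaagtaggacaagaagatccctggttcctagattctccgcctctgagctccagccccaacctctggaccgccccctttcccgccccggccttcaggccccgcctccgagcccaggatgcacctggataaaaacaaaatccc
Tfeb: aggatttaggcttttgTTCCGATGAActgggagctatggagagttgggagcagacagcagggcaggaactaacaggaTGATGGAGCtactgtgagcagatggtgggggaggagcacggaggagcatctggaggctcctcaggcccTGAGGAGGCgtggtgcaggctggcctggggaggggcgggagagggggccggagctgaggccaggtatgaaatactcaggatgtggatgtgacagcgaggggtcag
Atg5: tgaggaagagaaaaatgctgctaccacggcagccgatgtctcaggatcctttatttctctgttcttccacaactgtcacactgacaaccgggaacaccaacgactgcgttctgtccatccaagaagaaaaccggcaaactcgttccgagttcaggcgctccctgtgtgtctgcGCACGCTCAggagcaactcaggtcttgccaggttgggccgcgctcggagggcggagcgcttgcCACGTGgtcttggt

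In these letters Ulk1 had no match. Ulk2 had 1 antioxidant core, which began 17 bases before the start, and Atg14 had 2, at 250 and 240 bases before it. Tfeb had the STAT6-type palindrome 234 bases before this start and antioxidant cores at 173 and 105 bases. Atg5 had an E-box 14 bases before the start and an antioxidant core at 77 bases. No capitals overlap in the sequences shown.

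Over the 30 genes with a window, 3 held the E-box (10.0%), Atg3, Atg5 and Atg7, against 6.86% of 27025 genes in the promoter table. The STAT6-type palindrome was in 1, Tfeb (3.33%), against 6.76% of all genes, and the FOXO core in 3, Ambra1, Atg4a and Gabarapl1 (10.0%), against 13.5%. The longer FOXO form GTAAACA, which contains the core, was in 0 of 30, against 3.54%. The short antioxidant core was in 15 of 30, against 38.7%. None of the 3 genes with an E-box passed the 2-fold rule in any comparison. A match is a run of letters and not a measured binding site.

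The ULK1 kinase complex comprises the kinase ULK1 or ULK2, the scaffold FIP200, encoded by Rb1cc1, and ATG13 and ATG101. Ulk1 had signals of 5.23 with IL-4 and 5.13 in medium in Stat6-/- cells, and of 4.01 with IL-4 and 5.38 in medium in wild-type cells. The wild-type array with IL-4 stood apart below the other 3, 2.58-fold under wild type in medium and 2.32-fold under Stat6-/- with IL-4. In Ulk2 wild type with IL-4 was also the lowest array, and the signals were 5.50 and 5.83 in Stat6-/- cells with IL-4 and in medium, and 4.55 and 5.89 in wild-type cells with IL-4 and in medium, a 2.54-fold fall.

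Rb1cc1 was at 4.19 with IL-4 and 4.65 in medium in Stat6-/- cells, and at 4.00 and 4.94 in wild-type cells. Its difference with IL-4 was negative in both genotypes, -0.46 and -0.94, and passed the rule in neither. For Atg13 the signals were 6.34 with IL-4 and 6.77 in medium in Stat6-/- cells, against 5.99 and 6.59 in wild-type cells. Both arrays with IL-4 thus lay below both arrays in medium for Rb1cc1 and for Atg13. Atg101 ran from 4.73 to 4.94 over the 4 arrays. Of the 5 genes of this complex 2 fell in wild-type cells, with a median of -0.94. In Stat6-/- cells 0 changed, with a median of -0.34. Over all genes 6.78% fell in wild-type cells, with a median of -0.11. In Stat6-/- cells 0.355% of all genes changed, with a median of -0.05.

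The class III PI3-kinase complex has the lipid kinase VPS34, encoded by Pik3c3, and Beclin 1 at its core. ATG14 directs it to sites where autophagosomes form, UVRAG directs it to endosomes, and AMBRA1 links it to its regulators. Atg14 had signals of 3.89 with IL-4 and 3.71 in medium in Stat6-/- cells, and of 2.70 with IL-4 and 3.89 in medium in wild-type cells. Its lowest value, again that of wild type with IL-4, lay just above the floor, so that the 2.27-fold fall there and the 2.28-fold higher signal of Stat6-/- cells with IL-4 rest on a weak signal. RMA can pull weak signals together. How far that, or noise near the floor, altered these differences was not tested. Uvrag was at 6.75 with IL-4 and 6.98 in medium in Stat6-/- cells, and at 5.83 and 6.88 in wild-type cells, a fall of 2.07-fold in wild type that was -0.93 with quantile normalization applied again and -0.90 without the intensity trend, short of the rule.

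Pik3c3 had signals of 5.26 with IL-4 and 5.82 in medium in Stat6-/- cells, and of 5.19 and 5.90 in wild-type cells. Its difference with IL-4 was -0.55 in Stat6-/- and -0.71 in wild-type cells, the first being the most negative of all 36 autophagy genes in Stat6-/- cells. Becn1, which encodes Beclin 1, was at 5.71 and 5.82 in Stat6-/- cells with IL-4 and in medium, and at 5.80 and 6.29 in wild-type cells. Here wild type in medium was the array that stood apart, above the other 3. Ambra1 had 4.45 with IL-4 in each genotype, and 4.82 in Stat6-/- and 4.94 in wild-type cells in medium. All 5 genes of this complex were lower with IL-4 in wild-type cells, 2 of them past the rule, with a median of -0.71. The median in Stat6-/- cells was -0.23. Of all genes 58.6% were below 0 in wild-type cells and 6.78% passed the rule on that side.

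ATG9 is a membrane protein of vesicles that seed the autophagosome, ATG2 proteins move lipids into it, and WIPI proteins read PI3P on it. None of the 6 genes of this group passed the rule in any comparison. The share of all genes past it was 0.355% to 9.74%, depending on the comparison, so 0 of 6 says nothing particular about this group. With IL-4 in wild-type cells Atg2a (-0.63) and Atg2b (-0.59) had the most negative differences, Atg9a (-0.44) and Wipi2 (-0.43) followed, and Wipi1 (-0.13) and Atg9b (0.04) had the smallest. In Stat6-/- cells the differences of this group ran from -0.45, for Atg2b, to 0.07, for Atg9b. Atg9b and Wipi1 had signals of at most 3.01 on all 4 arrays, close to the floor. The Wipi2 signals were 4.18 with IL-4 and 4.26 in medium in Stat6-/- cells, and 4.41 and 4.83 in wild-type cells, both Stat6-/- arrays below both wild-type arrays.

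ATG12 is joined to ATG5 by the enzymes ATG7 and ATG10, and the product binds ATG16L1 to direct the attachment of LC3 to membranes. None of these 6 genes passed the rule in any comparison, where the share of all genes was 0.355% to 9.74%. Atg5 had signals of 5.07 with IL-4 and 5.01 in medium in Stat6-/- cells, against 5.31 and 5.47 in wild-type cells, so both Stat6-/- arrays lay below both wild-type arrays, by 0.24 with IL-4 and by 0.46 in medium. Atg7 was at 6.004 and 6.20 in Stat6-/- cells with IL-4 and in medium, and at 6.19 and 6.45 in wild-type cells. For Atg16l1 the signals were 4.89 with IL-4 and 5.00 in medium in Stat6-/- cells, and 4.74 and 5.12 in wild-type cells.

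The remaining conjugation genes also stayed within the rule. Atg12 ran from 4.83, in wild type with IL-4, to 5.27, in wild type in medium. Atg10 differed with IL-4 by -0.42 in Stat6-/- cells and by 0.03 in wild-type cells. Atg16l2 ran from 2.44 to 2.86 and lay near the floor. The group had a median difference with IL-4 of -0.09 in Stat6-/- cells and of -0.31 in wild-type cells.

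LC3 and GABARAP proteins are the ubiquitin-like proteins that end up on the autophagosome membrane. Of the 5 genes 0 rose or fell in any comparison, where the share of all genes was 0.355% to 9.74%. Gabarap was at 9.28 with IL-4 and 9.39 in medium in Stat6-/- cells, and at 9.22 and 9.31 in wild-type cells, so that all 4 arrays lay within 0.16. Map1lc3b, which encodes LC3B, had signals of 6.86 with IL-4 and 6.67 in medium in Stat6-/- cells, against 6.20 and 6.52 in wild-type cells. Both Stat6-/- arrays were above both wild-type arrays, and the distance with IL-4 was 0.66, or 1.58-fold. Map1lc3a was likewise higher on both Stat6-/- arrays, at 3.83 and 3.57 with IL-4 and in medium, against 3.44 and 3.28 in wild-type cells, all weak signals near the floor. Gabarapl1 differed with IL-4 by 0.07 in Stat6-/- and by -0.54 in wild-type cells, and Gabarapl2 by -0.18 and -0.42.

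LC3 proteins are trimmed by ATG4 proteases and joined to lipid by ATG3. Atg4c had signals of 4.19 with IL-4 and 4.47 in medium in Stat6-/- cells, and of 3.87 with IL-4 and 5.03 in medium in wild-type cells, a 2.23-fold fall that was -0.96, short of the rule, with quantile normalization applied again. The distance between the arrays in medium was part of its pattern: Stat6-/- cells in medium lay 0.56 below wild-type cells in medium. Atg4b was lower with IL-4 in both genotypes, by -0.48 in Stat6-/- and by -0.61 in wild-type cells, short of the rule. Atg4a and Atg4d differed by at most 0.22 in either direction with IL-4. Atg3 differed by 0.21 in Stat6-/- and by -0.52 in wild-type cells.

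Cargo receptors hold material marked by ubiquitin on one side and LC3 proteins on the other. Nbr1 had signals of 6.56 with IL-4 and 6.85 in medium in Stat6-/- cells, and of 5.74 with IL-4 and 6.98 in medium in wild-type cells, a 2.35-fold fall. Sqstm1, which encodes p62, was at 8.56 and 8.61 in Stat6-/- cells with IL-4 and in medium, and at 8.51 and 8.82 in wild-type cells, a difference with IL-4 of -0.05 and of -0.30. Tax1bp1 differed by -0.20 in Stat6-/- and by -0.55 in wild-type cells. Thus 1 of the 3 receptors fell in wild-type cells, where 6.78% of all genes did. Sqstm1 and Tax1bp1 had differences of the same sign within the rule.

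Tfeb had signals of 5.21 with IL-4 and 4.74 in medium in Stat6-/- cells, and of 5.70 with IL-4 and 5.02 in medium in wild-type cells. Both arrays with IL-4 lay above both arrays in medium, by 1.38-fold within Stat6-/- and 1.61-fold within wild type. It was the 1 autophagy gene with a signal highest in wild-type cells with IL-4.

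**Figure D2:**
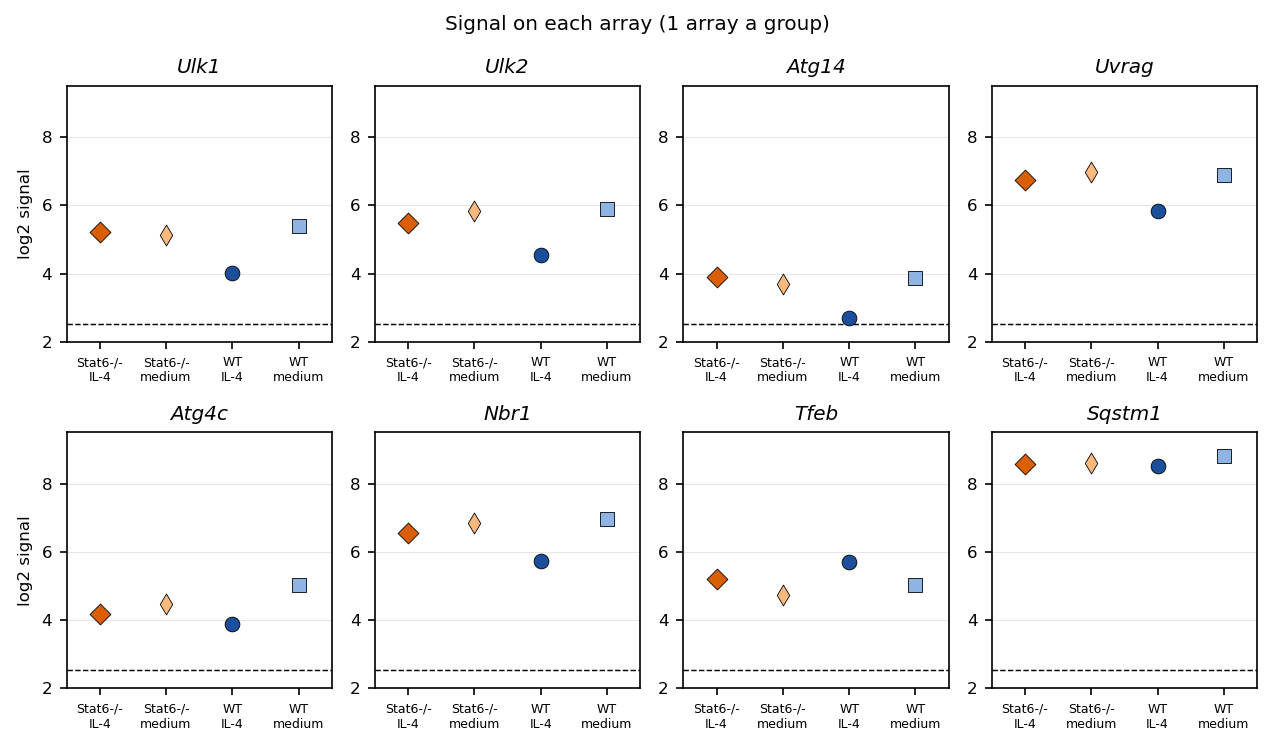
Points give the log2 signal on each of the 4 arrays for the 6 genes that fell with IL-4 in wild-type cells and for Tfeb and Sqstm1. The dashed line is the floor of 2.52. For Ulk1, Ulk2, Atg14, Uvrag, Atg4c and Nbr1 the point of wild type with IL-4 is the lowest, between 2.70 and 5.83, and for Tfeb it is the highest, at 5.70.

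In Stat6-/- cells the differences with IL-4 ran from -0.55, for Pik3c3, to 0.47, for Tfeb, with a median of -0.09, against -0.05 over all genes. Of all 10410 genes above the floor 0.355% changed there, 0.24% higher and 0.115% lower, so that 0 of 36 says nothing particular about the autophagy genes. At the 1.5-fold rule the count was also 0 of 36, with a share of 5.73% over all genes. Some genes had differences with IL-4 of like size and the same sign in each genotype. For Atg13 they were -0.43 in Stat6-/- and -0.60 in wild-type cells, for Ambra1 -0.37 and -0.49, and for Tfeb 0.47 and 0.68. These genes were picked after their values were seen.

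**Figure D3:**
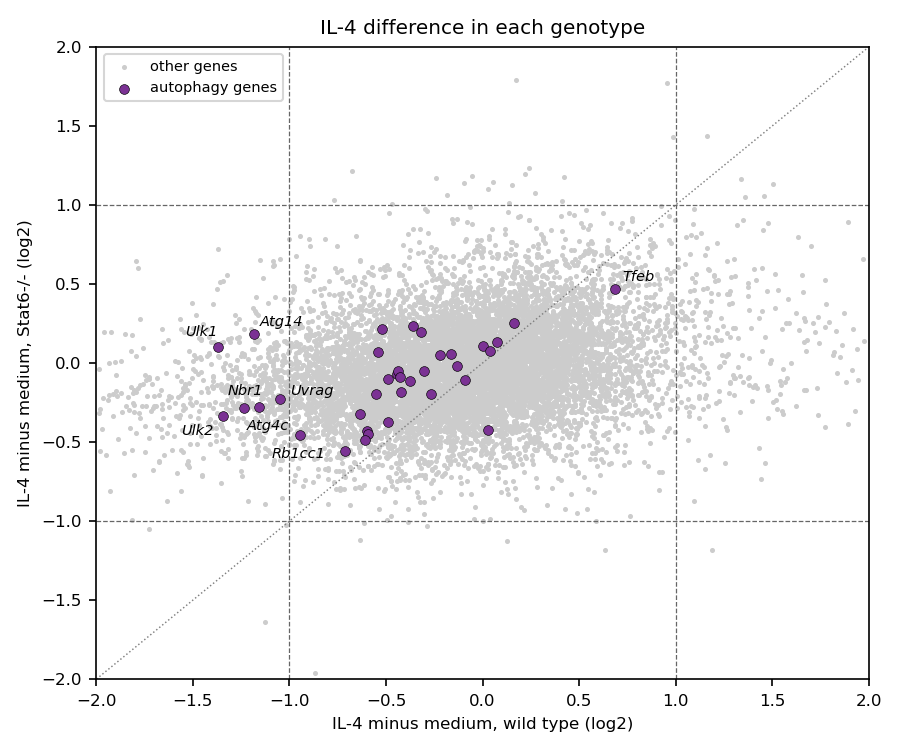
The difference with IL-4 in wild-type cells (horizontal) is set against that in Stat6-/- cells (vertical), both in log2 units, for the autophagy genes (purple) and all other genes that reached the floor (grey); genes beyond 2 on either axis are not drawn. The dashed lines mark the 2-fold rule. The 6 genes that fell in wild type lie left of -1, and all 36 lie between -0.55 and 0.47 on the vertical axis.

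The genotypes were then compared within each culture. In medium 0 of 36 autophagy genes differed by 2-fold, the share over all 10299 genes being 1.45%, of which 0.301% higher and 1.15% lower, and the differences, Stat6-/- minus wild type, ran from -0.57, for Wipi2, to 0.29, for Map1lc3a. Of all changed genes in medium 20.8% were higher in Stat6-/- cells, a share that became 37.2% with quantile normalization applied again, 33.9% with the intensity trend removed and 13.7% with the arrays shifted to one median. The median over the autophagy genes was -0.12 and that over all genes -0.11, and these became 0.04 and 0.01 with quantile normalization, 0.03 and -0.01 without the intensity trend, and -0.18 for both with the arrays at one median. At the 1.5-fold rule 0 of 36 differed in medium, against 10.8% of all genes. The direction of the small shift in medium thus depended on the scaling of the arrays.

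With IL-4, 2 of the 36 were higher in Stat6-/- than in wild-type cells, Ulk1 (1.21) and Atg14 (1.19), and 0 were lower. Over all 10433 genes 8.84% differed, 4.01% higher and 4.83% lower. Ulk2 (0.95), Uvrag (0.92), Nbr1 (0.82) and Map1lc3b (0.66) followed within the rule, and these 6 were higher at 1.5-fold, against 10.6% of all genes. In all, 29 of 36 were above 0, with a median of 0.17, where the median of all genes was at 0.

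Finally the difference between the IL-4 effects was taken, Stat6-/- minus wild type, among genes that reached the floor on any array. It uses the same arrays as the comparisons above and adds no measurement. It was past the rule for 3 of the 36, Ulk1 (1.47), Atg14 (1.37) and Ulk2 (1.01), all in the higher direction. Of all 10798 genes 8.97% were past it, 5.77% in the higher and 3.2% in the lower direction. Of the changed genes 64.3% lay in that direction, or 52.3% with quantile normalization applied again and 54.7% without the intensity trend. Ulk2 passed by little and was at 0.86 and 0.89 under those scalings. Nbr1 (0.95), Atg4c (0.88), Uvrag (0.82) and Atg3 (0.73) came next, and at 1.5-fold 9 of the 36 were higher, against 16.4% of all genes.

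**Figure D4:**
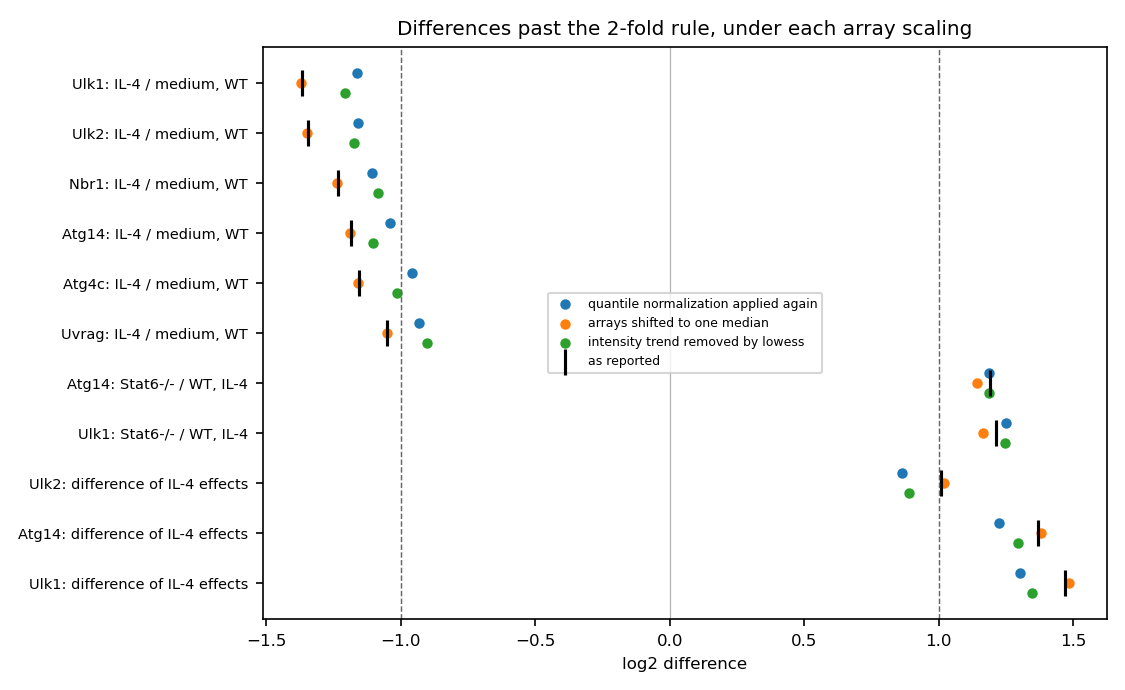
Every difference of an autophagy gene past the 2-fold rule is shown as reported (black bar) and under 3 other scalings of the arrays (dots), in log2 units; the first 6 rows are IL-4 against medium in wild type, the next 2 Stat6-/- against wild type with IL-4, and the last 3 the difference of IL-4 effects. Quantile normalization and removal of the intensity trend move the first group towards 0, taking Uvrag past the line at -1 under both and Atg4c (-0.96) under the first.

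Genes that act around this core were read from 7 lists, of which 113 distinct genes were on the array. In wild-type cells with IL-4 19 of 109 above the floor fell (17.4%) and 2 rose (1.83%), with a median of -0.30. Over all genes the shares were 6.78% and 2.96%, with a median of -0.11. In Stat6-/- cells 0 of 109 fell and 1 rose, Ddit3 (1.24), a stress-induced transcription factor. Values below are IL-4 minus medium in wild-type cells unless said otherwise, and the same quantity in Stat6-/- cells was between -0.74 and 0.73 for every other gene named.

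Among genes of nutrient sensing, which hold the ULK1 complex in check or release it, 3 of 31 fell and 0 rose, with a median of -0.28, or of -0.20 with signals under the floor raised to it. The share that fell, 9.68%, was near that of all genes. The 3 were Fnip2 (-1.43) and Fnip1 (-1.11), partners of folliculin, and Sesn1 (-1.30), a sestrin that restrains mTORC1. The folliculin gene Flcn lay at -0.99, just short of the rule, and was higher in Stat6-/- than in wild-type cells with IL-4 by 1.18. Sesn2 was higher there by 1.51, and Tsc1, an inhibitor of mTORC1, passed the rule in the difference between IL-4 effects only (1.05).

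Of 20 other genes of initiation and membrane supply, 2 fell, also a share near that of all genes: Trp53inp1 (-1.66), whose protein binds LC3, and Dram2 (-1.28), a lysosomal membrane protein, with a list median of -0.36. Of 18 genes for the fusion of autophagosomes with lysosomes, 3 fell: Vps39 (-1.31), a subunit of the HOPS tether, Tecpr1 (-1.26), a tethering protein, and Stx17 (-1.24), the SNARE of the autophagosome. The share of the fusion list that fell was 16.7%, against 6.78% of all genes. Its median was -0.30 in wild-type and 0.07 in Stat6-/- cells, against -0.11 and -0.05 over all genes.

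Of 17 further receptors and adaptors, 5 fell (29.4%) and 1 rose (5.88%), with a median of -0.61. Over all genes 6.78% fell and 2.96% rose, with a median of -0.11. Retreg1, a receptor for the endoplasmic reticulum, was at 3.73 with IL-4 and 5.23 in medium. Ncoa4 (-1.32) is a receptor for ferritin and Bnip3 (-1.28) for mitochondria, and Wdfy3 (-1.27) is an adaptor for protein aggregates. Bnip3 was already lower in Stat6-/- than in wild-type cells in medium, by -0.94. The fifth was Lgals8 (-1.01), a galectin that marks damaged vesicles, named after its value was seen. Lgals3 (1.16), another galectin, rose, and was lower in Stat6-/- cells with IL-4 by -1.11. Pink1, a kinase of damaged mitochondria, lay at -0.96 and was higher in Stat6-/- cells with IL-4 by 1.16.

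Of 12 transcriptional regulators 1 fell (8.33%, near the share of all genes), Foxo3 (-1.01), with a median of 0.19. Nfe2l2, which encodes NRF2, lay at 0.77 and was lower in Stat6-/- than in wild-type cells with IL-4 by -1.13. Of 7 genes for the attachment of LC3 to phagosomes, Ncf1 (-1.77), a subunit of the phagocyte oxidase, fell and Timd4 (1.44), a receptor for phosphatidylserine, rose. Each was 14.3% of this short list, where 6.78% of all genes fell and 2.96% rose. With IL-4, Timd4 was under the floor in Stat6-/- cells at 2.19, at least 3.44-fold lower than the 4.31 in wild-type cells.

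Interferon-inducible GTPases that act on vacuoles holding microbes had the largest shift of the 7 lists. Of the 8 genes of this list 5 were read, and Irgm2, Igtp and Gbp2 were not. In wild-type cells 4 of 5 fell with IL-4, with a median of -1.75: Gbp7 (-2.44), Iigp1 (-2.22), Gbp3 (-1.26) and Gbp5, at 2.32 with IL-4, under the floor, and 4.06 in medium, at least 2.91-fold lower. Irgm1 lay at -0.92. With Gbp5 set at the floor the median was -1.54. Of all genes 6.78% fell with IL-4 in wild-type cells. Their median was -0.11, or -0.10 with signals under the floor raised to it. All 5 were higher in Stat6-/- than in wild-type cells with IL-4, by 1.097 for Irgm1 to 2.77 for Gbp7, where 4.01% of all genes were higher.

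**Figure D5:**
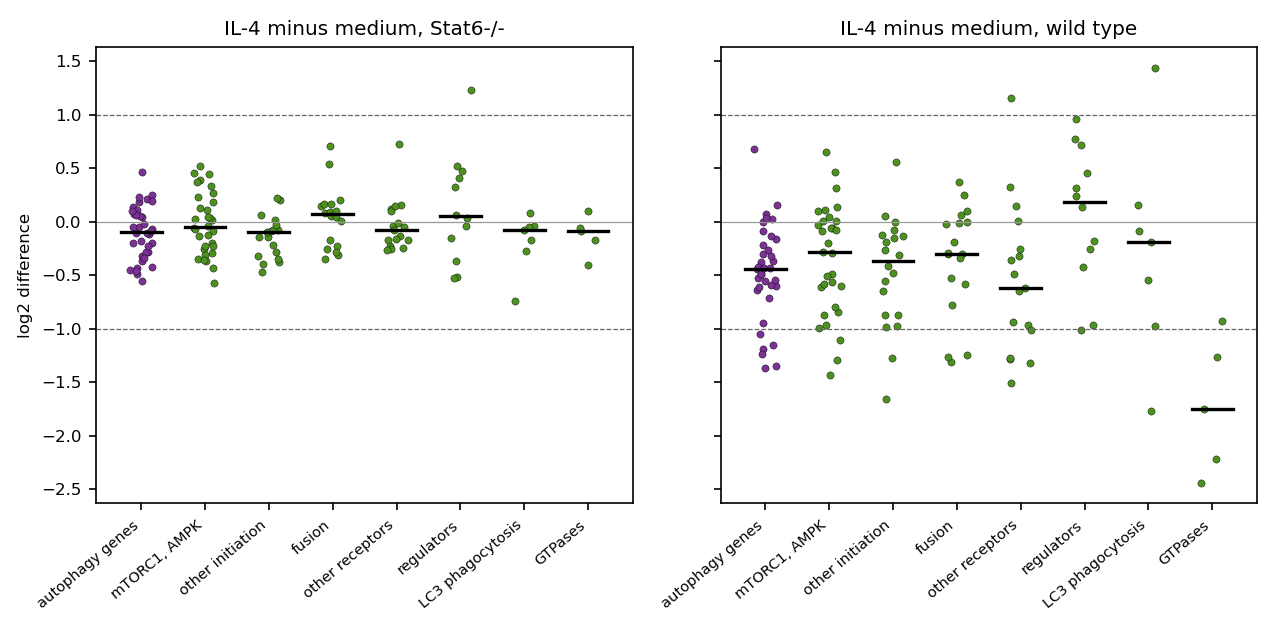
The difference IL-4 minus medium, in log2 units, is shown for the autophagy genes (purple) and the 7 lists around them (green), with the Stat6-/- comparison on the left and the wild-type comparison on the right; each point is a gene above the floor, the black bar is the list's median, and dashed lines mark the 2-fold rule. In Stat6-/- cells 1 point, Ddit3, lies past a line, and in wild type the GTPases have the lowest median, -1.75.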

How the data were processed

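RNA of 4 macrophage cultures was measured on Affymetrix whole-transcript arrays, 1 per group. The authors deposited log2 signals made with RMA in Affymetrix Expression Console, per the submitters' processing notes. Software versions and the build were not given in the sources used here. That the values are log2 was read from their range. Of 35557 probesets, 21789 had 1 gene symbol, 1621 had several, and the annotation table did not name 12147. All 36 genes matched an Entrez identifier in a RefSeq table of GRCm38.p6. All columns were mapped to samples.

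Differences were computed in Python 3.11.15 with pandas 2.3.3. The code for the rule of size was run on simulated data, with shifts larger than the rule put into bright genes. That run used a set noise and does not measure the error of the calls given here. There was no statistical test, since each group was 1 array. The members, the lists of neighbouring genes and the markers were chosen with earlier results of these data known. Values on all 4 arrays were given for genes past the rule, the 10 with the largest range and 9 fixed core genes, and from each list up to 6 genes past the rule were named, with Lgals8 as an exception. Alternatives were 3 array scalings (lowess fraction 0.3, statsmodels 0.14.6), 3 treatments of the floor, the mean of all probesets per gene, and a 1.5-fold rule. Of 119 list entries, 114 were on the array.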

Additional observations from a re-analysis of the deposited data

Results flagged for a closer look

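Ulk1 and Atg14 had differences with IL-4 of opposite sign in the 2 genotypes. For Ulk1 they were 0.10 in Stat6-/- and -1.37 in wild-type cells, which are 1.47 apart. For Atg14 they were 0.18 in Stat6-/- and -1.19 in wild-type cells, 1.37 apart. With 1 array per group neither the small positive values nor the difference between the genotypes was tested.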

How the results depend on the processing

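The named autophagy genes kept the sign of every difference past the 2-fold rule under all 7 alternatives to scaling, floor and probeset choice. Only the 3 array scalings could change these signs. The floor settings left these differences as they were, and each of these genes had 1 probeset. The calls lost were those of Atg4c (-0.96) and Uvrag (-0.93) in wild type and of Ulk2 (0.86) in the difference of IL-4 effects with quantile normalization applied again, of Uvrag (-0.90) and Ulk2 (0.89) without the intensity trend, and of Atg14 with a floor at the 75th percentile (4.65), which its signals did not reach. That floor left 1 autophagy gene higher in Stat6-/- cells with IL-4, and 20 genes in all changed with IL-4 in Stat6-/- cells and 93 between genotypes in medium, against 37 and 149, since fewer genes could pass. A 1.5-fold rule gave 13 autophagy genes with IL-4 in wild type (12 lower, 1 higher), 6 between genotypes with IL-4 and 9 in the difference of IL-4 effects, against 6, 2 and 3, and it gave 0 in Stat6-/- cells and 0 in medium. Over all genes that rule gave 2907 with IL-4 in wild type, 596 in Stat6-/- cells, 1114 between genotypes in medium, 2398 with IL-4 and 2830 in the difference, against 1001, 37, 149, 922 and 969. No paired analysis was possible because each group was 1 array, and for the same reason no replicate could be left out. Weak signals, within 1.5 of the floor or under it on all 4 arrays, limit Atg14, Atg16l2, Atg9b, Wipi1, Atg10, Atg4d and Map1lc3a.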

Other observations

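Second probesets existed for 4 of the 36 genes. They entered no count above except under the mean of all probesets per gene, and single values were given for Atg2b and Gabarapl2. Map1lc3b gave 6.79 with IL-4 and 6.47 in medium in Stat6-/- cells, and 6.20 and 6.34 in wild-type cells, with both Stat6-/- arrays above both wild-type arrays. This Map1lc3b probeset has an identifier among those of chromosome 14, with the gene on chromosome 8. Whether it is a separate reading of the gene was not tested. Gabarapl2 gave 2.44 and 1.32 in Stat6-/- cells and 2.55 and 2.02 in wild-type cells, about the floor, where its other probeset gave 6.10 to 6.52. The differences with IL-4 were thus positive in both genotypes, and those of the other probeset were negative in both. Atg4a gave 4.52 to 4.71, and Atg2b gave 3.30 to 3.498 with a difference with IL-4 of -0.20 in Stat6-/- and 0.05 in wild-type cells, where its other probeset gave -0.45 and -0.59.

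Probeset identifiers of this array follow chromosomes: for 96.8% of 21698 probesets, the most frequent chromosome among the 10 nearest named probesets on each side was that of the gene. It was not for the Gabarapl2 probeset used above (chromosome 5, with the gene on chromosome 8), the Atg4a probeset used above (chromosome 3, with the gene on chromosome X) or the second Map1lc3b probeset (chromosome 14, with the gene on chromosome 8). The Gabarapl2 and Atg4a probesets named here entered the counts above. The RefSeq table lists a pseudogene, Atg4a-ps, on chromosome 3. Whether these probesets read the genes or copies of them was not tested.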
